A study of Mus musculus with 2 samples.

Results

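Entry into and passage through mitosis is carried out by a set of protein kinases, by the kinetochore that ties each chromosome to the spindle, and by the checkpoint that holds anaphase until every chromosome is attached. The 54 genes described here encode mitotic kinases and cyclins, kinetochore and spindle proteins, checkpoint proteins and condensins, with the kinesin motors left out. They were taken from the deposited table by gene symbol, and a symbol with several transcript rows is represented by its most abundant one, averaged over the libraries. All 54 were found among the 24013 gene symbols of the table, and all 54 had a mean of at least 50 normalized counts, the level above which 10518 genes were compared. The genes were listed by symbol, with earlier results of these data known. Measured values enter the rule itself only in the choice of row for the 15 members with several rows.

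The cells came from C57BL/6 mice and were CD8+ T cells, taken as naive cells from the spleen and held for 24 hours on plates coated with antibodies against CD3 and CD28, which stand in for antigen and costimulation. The wild-type library came from animals 7 weeks old and the other from animals 6 weeks old of the genotype DGKζ-/-, which lack diacylglycerol kinase ζ, an enzyme that removes the second messenger diacylglycerol and so restrains signalling through Ras. The labels name no deleted exon, no number of pooled animals and no sex. Each genotype has 1 library, so no test between genotypes was possible and no difference below has a replicate check.

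Depth over genes was 37211969 reads for wild type and 13464169 for the deficient library. Dgkz, the targeted gene, stood at 6714 normalized counts in the wild-type and 2591 in the deficient library. Xist, which is made from the inactive X chromosome of females, stood at 14.0 and 9206, so the libraries differed in sex as well as in genotype and age, and the contributions of these to any difference cannot be told apart. All 8 CD8 T cell markers were measured, with sums of 49189 and 42317 normalized counts. Of these, 5 were lower in the deficient library: Cd3g (1.83-fold), Cd8a (1.55-fold), Cd3e (1.40-fold), Cd8b1 (1.22-fold) and Cd3d (1.14-fold). The other 3 were higher: Lck (1.15-fold), Cd247 (1.12-fold) and Thy1 (1.10-fold). The sums over the 11 B cell markers were 1998 and 1140, and over the 4 CD4 T cell markers 2699 and 4432. Within the latter Cd4 itself stood at 171 and 53.2 (3.21-fold lower, 2.22 to 4.82), Zbtb7b at 57.1 and 48.0 and Foxp3 at 262 and 321, and Ctla4, at 2209 and 4010, made up most of the sum. Of the 6 NK cell markers, which sum to 1948 and 2627, the defining Ncr1, Klrb1c and Klra8 had no read in the deficient library and no more than 5.25 normalized counts in the wild-type one. The others moved in different directions, with Eomes at 956 and 1861, Klrd1 at 395 and 134 and Klrk1 at 587 and 633. The 9 myeloid markers summed to 290 and 324, the 8 erythroid and platelet markers to 82.8 and 60.02 and the 6 stromal and endothelial markers to 38.5 and 17.1. Of the myeloid markers only Fcgr3 (4.66 and 49.7) and Mpeg1 (127 and 185) were higher in the deficient library. Alas2 (33.8 and 54.9) was the only higher erythroid or platelet marker, and Pdgfrb (7.58 and 15.4) the only higher stromal or endothelial one. The part of these cell types in the results below was not tested.

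As background, the genes of late cell cycle are switched on together. In resting cells the DREAM complex, built on the MuvB core, keeps them off through promoter elements known as the CHR (cell cycle genes homology region). In cycling cells B-MYB (Mybl2) and FOXM1 join the MuvB core and turn the genes on, and many of these promoters also carry CCAAT boxes bound by NF-Y. CD8 T cells stimulated through CD3 and CD28 leave quiescence and begin to cycle. In a bulk library, a larger share of cells in G2 or mitosis cannot be told apart from more mitotic RNA per cell.

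Promoter sequence was at hand for 45 of the 54 members in RefSeq's table for mouse build GRCm38.p6, as windows of 300 bases reaching from 250 bases before the annotated start to 50 bases after it. No window was at hand for Wee1, the lowest member, or for Foxm1, Ccna2, Cdc25c, Aurkb, Incenp, Spc24, Tpx2 and Smc4. The stretches shown are the last 150 bases before the start for 8 members with a single window. These are the 4 highest and the 4 lowest of such members by the ratio between the libraries, so both ends of that order can be read together. Wee1, Foxm1 and Cenpk, which has several windows, are therefore missing from its low end. Each is written 5′ to 3′ on the strand of its gene, and capitals mark the CCAAT box, the canonical CHR with the letters TTTGAA and a variant of the CHR with the letters TTCGAA. Matches on both strands were taken, so a box appears as ATTGG where it lies on the other strand, a canonical CHR then appears as TTCAAA, and the variant reads alike on both. No base belongs to matches of more than 1 motif in the stretches shown.
Nusap1 (chr2:119618148-119618297, plus strand): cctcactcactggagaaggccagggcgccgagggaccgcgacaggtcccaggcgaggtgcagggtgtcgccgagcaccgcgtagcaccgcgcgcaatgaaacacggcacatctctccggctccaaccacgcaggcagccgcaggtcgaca
Ube2c (chr2:164769779-164769928, plus strand): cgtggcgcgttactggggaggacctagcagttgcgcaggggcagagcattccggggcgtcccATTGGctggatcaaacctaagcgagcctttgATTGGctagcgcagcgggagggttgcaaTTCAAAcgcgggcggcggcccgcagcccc
Ccnb2 (chr9:70421555-70421704, minus strand): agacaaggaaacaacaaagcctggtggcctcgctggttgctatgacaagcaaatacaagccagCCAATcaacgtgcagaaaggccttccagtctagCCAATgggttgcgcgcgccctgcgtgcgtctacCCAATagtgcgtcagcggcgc
Hmmr (chr11:40733438-40733587, minus strand): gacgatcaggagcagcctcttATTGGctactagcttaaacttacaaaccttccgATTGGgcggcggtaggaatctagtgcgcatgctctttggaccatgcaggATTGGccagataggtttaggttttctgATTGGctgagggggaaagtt
Cenph (chr13:100775900-100776049, minus strand): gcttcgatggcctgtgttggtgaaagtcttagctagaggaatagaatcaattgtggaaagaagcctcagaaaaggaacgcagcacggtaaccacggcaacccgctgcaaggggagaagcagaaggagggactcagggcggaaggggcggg
Pttg1 (chr11:43425982-43426131, minus strand): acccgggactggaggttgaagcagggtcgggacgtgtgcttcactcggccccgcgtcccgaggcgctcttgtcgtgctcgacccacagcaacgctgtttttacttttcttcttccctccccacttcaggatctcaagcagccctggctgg
Mybl2 (chr2:163054485-163054634, plus strand): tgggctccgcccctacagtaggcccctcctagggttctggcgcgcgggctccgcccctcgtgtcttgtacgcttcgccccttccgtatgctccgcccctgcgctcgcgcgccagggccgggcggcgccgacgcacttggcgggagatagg
Cenpm (chr15:82244337-82244486, minus strand): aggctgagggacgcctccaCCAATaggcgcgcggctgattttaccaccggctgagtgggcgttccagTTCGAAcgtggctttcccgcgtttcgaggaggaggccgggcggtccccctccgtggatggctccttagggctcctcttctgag
The Ube2c stretch held 2 CCAAT boxes and 1 canonical CHR, the Ccnb2 stretch 3 CCAAT boxes and the Hmmr stretch 4, while the Nusap1, Cenph, Pttg1 and Mybl2 stretches held no match. The Cenpm stretch held 1 CCAAT box and 1 variant CHR. The Ccnb2 and Hmmr windows each had a canonical CHR in the first bases after the start, outside the stretch shown. The Cenph window had a CCAAT box that began at base 32 after the start. Before the stretches shown, the Ube2c, Hmmr and Cenpm windows had further CCAAT boxes and the Ccnb2 window a further canonical CHR. The Nusap1, Pttg1 and Mybl2 windows held no match.

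Levels are given as normalized counts, the authors' reads per transcript row divided by a factor for the depth of each library. Differences are given as the log2 ratio, log2((deficient + 10)/(wild type + 10)), in which the 10 normalized counts added understate the change of low genes, or as the fold without that addition. Each fold has an exact 95% interval (Clopper-Pearson) that covers counting error only. At this depth it lay above 1 for 35.8% and below 1 for 21.7% of all genes compared. Where intervals of different genes are said not to overlap, this concerns counting error in these libraries and not variation between animals. A gene is called at least 2-fold higher or lower at a log2 ratio of 1 or -1. A log2 ratio of 0.5 is used as a smaller size, chosen with earlier results for these members known. Counts of members at 0.5 are therefore a description only.

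The mitotic genes were higher in the deficient library almost throughout, and mostly by less than 2-fold. A log2 ratio above 0 was found for 51 of the 54, against 58.2% of all genes compared. At least 0.5 was reached by 23 members, against 6.27% of all genes, and by none in the other direction, against 6.75%. Only Nusap1 was called at least 2-fold higher, against 1.3% of all genes, and none was called lower, against 1.29%. The median log2 ratio was 0.41 over the members and 0.055 over all genes, and 0.070 over the 8390 genes whose means lay within the range of the members' means. The counting interval of the fold lay above 1 for 45 members, against 35.8% of all genes, below 1 for Wee1 alone, against 21.7%, and held 1 for 8. With both libraries scaled to equal totals, 47 members were above 0, 16 reached 0.5, against 4.50% of all genes, and none was called, while 114 genes in all were called higher and 178 lower in place of 137 and 136.

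Read together, the members took 0.706% of the reads over genes in the wild-type library (exact interval 0.704 to 0.709) and 0.918% in the deficient library (0.913 to 0.923). Top2a and Mki67 are the most abundant members, and without them the shares were 0.495% and 0.628%. The 38 genes of G1/S and replication, a list for the preceding phase, took 1.05% in each library. The members' share was thus higher in the deficient library, and that of the replication genes was level to 3 digits. Shares of reads amount to equal totals, unlike the normalized counts used for the folds. In normalized counts the members summed to 153248 and 212000 (1.38-fold) and the replication genes to 227707 and 242602 (1.07-fold).

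**Figure D1:**
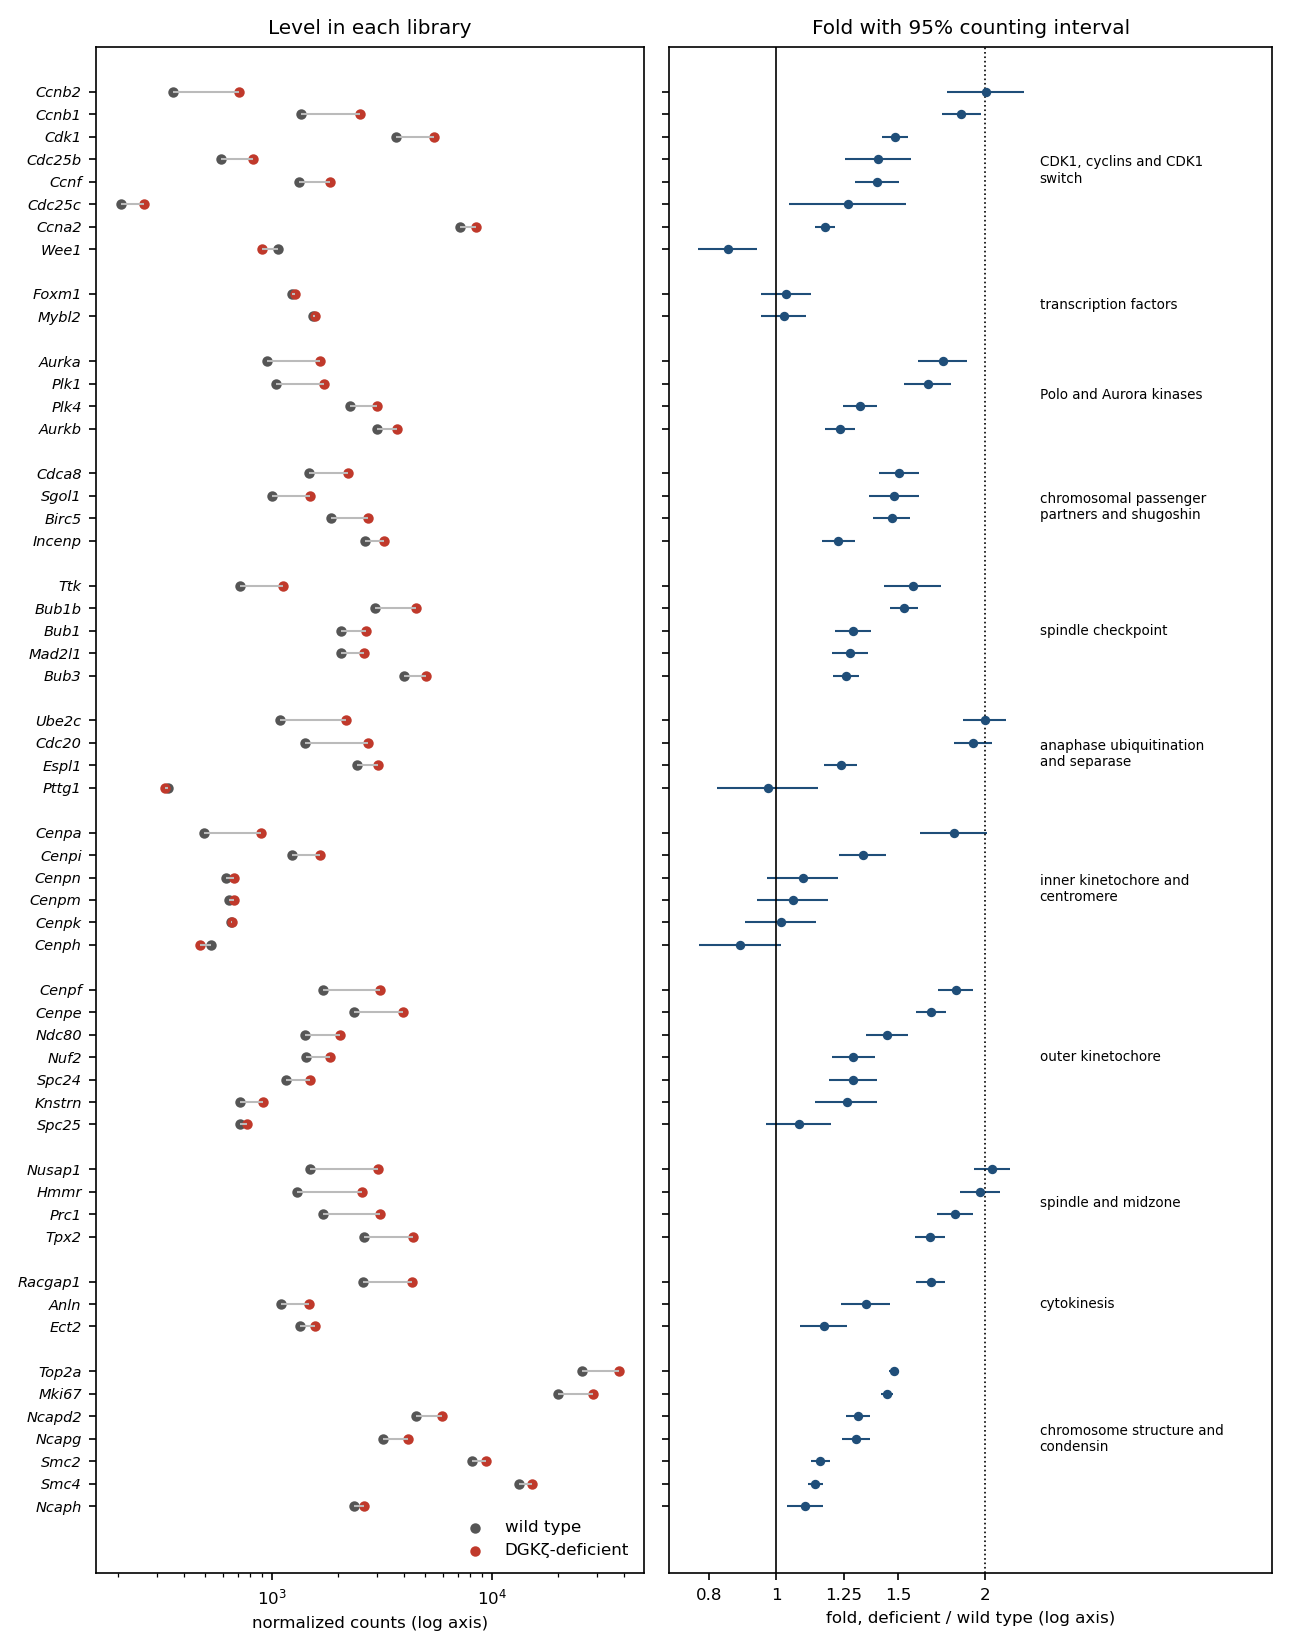
Left, normalized counts of each member in the wild-type (grey) and the deficient library (red) on a log axis; right, the fold of deficient over wild type on a log axis with its 95% counting interval, a solid line at 1 and a dotted line at 2. Members are grouped by role, and the points run from 0.85-fold for Wee1 to 2.05-fold for Nusap1.

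Cyclin-dependent kinase 1 and its cyclins form the switch that starts mitosis. Ccnb2, a mitotic B-type cyclin, stood at 356 normalized counts in the wild-type and 713 in the deficient library, 2.01-fold higher (1.77 to 2.28). Ccnb1, the main mitotic cyclin, stood at 1356 and 2509 (1.85-fold, 1.73 to 1.98). Both B-type cyclins had larger folds than Ccna2, the cyclin that acts from S phase onward, which had a higher level in each library, at 7190 and 8460 (1.18-fold, 1.14 to 1.22). The intervals of Ccnb1 and Ccna2 do not overlap. The fold of the kinase itself, Cdk1, lay between them, with levels of 3687 and 5474 (1.48-fold, 1.42 to 1.55). Ccnf, a cyclin-like F-box protein, stood at 1326 and 1850.

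The kinase and phosphatases that set the activity of CDK1 differed in direction. Wee1, which places the inhibitory phosphate on CDK1, stood at 1066 in the wild-type and 907 in the deficient library, 1.17-fold lower (1.07 to 1.30), and was the lowest member in the order. The phosphatases that remove this phosphate were higher: Cdc25b stood at 587 and 823 (1.40-fold, 1.26 to 1.57), and Cdc25c, the least abundant member, at 207 and 262 (1.27-fold, 1.04 to 1.54). Outside the members, Pkmyt1, the second kinase that inhibits CDK1, stood at 1121 and 899, 1.25-fold lower (1.13 to 1.38), and Cdc25a, another phosphatase of this family, had a log2 ratio of -0.07.

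The transcription factors of the programme had log2 ratios near 0. Foxm1 stood at 1240 and 1281 normalized counts (1.03-fold, 0.95 to 1.12) and Mybl2 at 1544 and 1581 (1.02-fold, 0.95 to 1.10). Both intervals hold 1, and both genes were below 0 when the libraries were scaled to equal totals of reads. Among 21 genes of the MuvB core, the pocket proteins, E2F and NF-Y, the median log2 ratio was -0.04 (0.022 with the lowest transcript row of each gene), 10 were above 0, and E2f7, a repressor of the E2F family, was the only gene past 0.5 in either direction, at 342 and 223 (1.54-fold lower, 1.27 to 1.87). Rbl2, the pocket protein p130 of quiescent cells, stood at 832 and 600 (log2 ratio -0.46), and the highest of that list were E2f2 (0.26) and E2f5 (0.25).

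Polo-like and Aurora kinases drive centrosome maturation, spindle assembly and chromosome alignment. Aurka, the spindle pole kinase, stood at 956 and 1662 (1.74-fold, 1.60 to 1.88), and Plk1 at 1048 and 1734 (1.65-fold, 1.53 to 1.79). Aurkb, the centromeric kinase, had a smaller difference, at 3015 and 3725 (1.24-fold, 1.17 to 1.30). Plk4, which starts centriole duplication, stood at 2270 and 3000 (1.32-fold). The intervals of Aurka and Plk1 lie wholly above those of Aurkb and Plk4.

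Aurora B acts in the chromosomal passenger complex with survivin (Birc5), borealin (Cdca8) and INCENP. Cdca8 stood at 1472 and 2214 (1.50-fold, 1.41 to 1.61) and Birc5 at 1864 and 2735 (1.47-fold, 1.38 to 1.56), while Incenp stood at 2646 and 3252 (1.23-fold, 1.16 to 1.30), close to Aurkb. The complex therefore showed a pair of members with folds near 1.5 and a pair with folds near 1.24. Sgol1, shugoshin, which protects centromeric cohesion, stood at 1008 and 1490 (1.48-fold, 1.36 to 1.60).

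All 5 spindle checkpoint members were higher in the deficient library, with log2 ratios from 0.33 to 0.65. Ttk, the MPS1 kinase at the top of the checkpoint, stood at 717 and 1128 (1.57-fold, 1.43 to 1.73). Bub1b, which encodes BUBR1 of the inhibitory complex, stood at 2963 and 4531, and Bub1, its kinase relative, at 2074 and 2677. Bub3, the partner of both, had the smallest difference of the group, at 3996 and 5035 (1.26-fold, 1.21 to 1.32), followed by Mad2l1 (MAD2) at 2056 and 2624. Outside the members, the checkpoint gene Mad1l1 (MAD1) was nearly level, at 1258 and 1305 (1.04-fold, 0.95 to 1.13). The checkpoint target Cdc20, which activates the anaphase-promoting complex, had a larger difference than each of these, at 1419 and 2732 (1.93-fold, 1.81 to 2.05).

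Exit from mitosis depends on ubiquitination by the anaphase-promoting complex (APC/C). Ube2c, the ubiquitin-conjugating enzyme that starts its chains, stood at 1091 and 2181 normalized counts, with a counting interval of the fold from 1.86 to 2.15 and a log2 ratio of 0.99 just under the call. Ube2s, the enzyme that lengthens the chains and no member, had a log2 ratio of 0.75, at 964 and 1624. The subunits of the complex differed less: over 15 genes of the APC/C list the median was 0.25, with Ube2s the only gene past 0.5, Fzr1 (CDH1, the activator of late mitosis and G1) at 0.47 and Anapc13 lowest at -0.13. Anapc10 was next lowest, at 0.12.

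Securin and separase, which act downstream, stood apart from Cdc20 and Ube2c. Pttg1 (securin) was nearly level, at 337 and 328 (0.97-fold, 0.82 to 1.15). Espl1 (separase) stood at 2453 and 3037 (1.24-fold, 1.17 to 1.31). The interval of Pttg1 lies wholly below those of Cdc20 and Ube2c.

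Among the kinetochore members, most inner genes had smaller log2 ratios than most outer ones, and the inner median of 0.10 was 0.012 at equal totals. Of the 6 inner kinetochore and centromere genes only Cenpa, the centromeric histone H3 variant, reached 0.5, at 494 and 892 normalized counts (1.80-fold, 1.61 to 2.01). The 5 genes of the constitutive network lay at 0.08 by the median of their log2 ratios, and at -0.01 with totals made equal. Cenpi stood at 1243 and 1655 (1.33-fold, 1.23 to 1.44), whereas the intervals of the other 4 held 1, and of these Cenpk and Cenpm were below 0 at equal totals and Cenph under either scaling. Cenph stood at 532 and 472 (0.89-fold, 0.77 to 1.02), Cenpk at 653 and 662, Cenpm at 638 and 674, and Cenpn at 618 and 674. Among 25 further centromere and kinetochore genes the median was 0.19 (0.096 at equal totals) and 22 were above 0. Only Oip5, a CENP-A loading factor, passed 0.5 (503 and 734, log2 ratio 0.54), while Cenpo (-0.07) and Cenpb (-0.01) were the lowest. The order seen among the members did not hold throughout these genes. Inner Cenpt (0.45) and Cenpw (0.36) lay above outer Mis12 (0.04) and Nsl1 (0.10). Outer Casc5 (0.41) and Kntc1 (0.36) in turn lay above inner Cenpl (-0.004) and Cenpo.

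The outer kinetochore binds microtubules, and its large transient proteins had the largest values. Cenpf, a corona protein that accumulates in G2, stood at 1718 and 3120 (1.82-fold, 1.71 to 1.93), and Cenpe, a kinesin-type motor kept among the members for its place at the kinetochore, at 2363 and 3953 (1.67-fold, 1.59 to 1.76). The 4 subunits of the NDC80 complex, the core microtubule coupler, did not share a single value: Ndc80 stood at 1418 and 2051 (1.45-fold, 1.35 to 1.55), Nuf2 at 1430 and 1847, Spc24 at 1157 and 1494, and Spc25 at 717 and 772 (1.08-fold, 0.96 to 1.20). The intervals of Ndc80 and Spc25 do not overlap. Knstrn, a spindle and kinetochore adaptor, stood at 721 and 911.

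The spindle and midzone genes had the highest median of the 11 role groups, 0.91, and all 4 passed 0.5. Nusap1, a microtubule-bundling protein, stood at 1487 and 3048 normalized counts (2.05-fold, 1.93 to 2.18). Hmmr, a spindle assembly factor also known as the hyaluronan receptor RHAMM, stood at 1307 and 2572 (1.97-fold, 1.84 to 2.10). Prc1, which cross-links the antiparallel microtubules of the midzone, stood at 1718 and 3114. Tpx2, the activator of Aurora A, was the lowest of the group, at 2627 and 4378 (1.67-fold, 1.59 to 1.75).

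Cytokinesis genes were spread. Racgap1, part of the centralspindlin complex, stood at 2607 and 4356 (1.67-fold, 1.59 to 1.75). Anln (anillin, a scaffold of the contractile ring) stood at 1098 and 1477, and Ect2, the exchange factor that activates RhoA at the division plane, at 1345 and 1573 (1.17-fold, 1.08 to 1.26). The intervals of Racgap1 and Ect2, direct binding partners at the midzone, do not overlap.

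Chromosome structure genes included the most abundant members. Top2a, which decatenates sister chromatids, stood at 25722 and 37994 (1.48-fold, 1.45 to 1.50), and Mki67, the proliferation marker that coats mitotic chromosomes, at 20099 and 29033 (1.44-fold, 1.42 to 1.47). The condensin subunits had smaller differences, with a median log2 ratio of 0.21 over the 5 subunits of condensin I (0.12 at equal totals). Ncapd2 stood at 4525 and 5934 and Ncapg at 3209 and 4181, both about 1.3-fold. Smc2 and Smc4, the ATPases, stood at 8139 and 9412 and at 13344 and 15190, and Ncaph was lowest at 2376 and 2615 (1.10-fold, 1.04 to 1.17). The 15 genes of cohesin and condensin II had a median of 0.12, between -0.16 for Pds5b and 0.21 for Ncaph2, and none passed 0.5.

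Per kilobase of transcript, with lengths from GENCODE M21 for all 54 members, Top2a stood at 4927 normalized counts in the wild-type and 7277 in the deficient library, Smc4 at 3092 and 3519, and Ccna2 at 2425 and 2853, the 3 highest of the members by the mean of both libraries. Mki67, at 1998 and 2886, was above Ccna2 in the deficient library. Level and difference were only loosely related. Across the 54 members, which share both libraries and are not independent replicates, the log2 ratio had a Spearman correlation of 0.12 with the mean level per kilobase, 0.069 with transcript length and -0.022 with GC content. Across all genes with a length, longer transcripts had lower log2 ratios (Spearman correlation -0.26 over 10399 genes), and with a linear trend on length and GC content removed the members' median was 0.44.

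**Figure D2:**
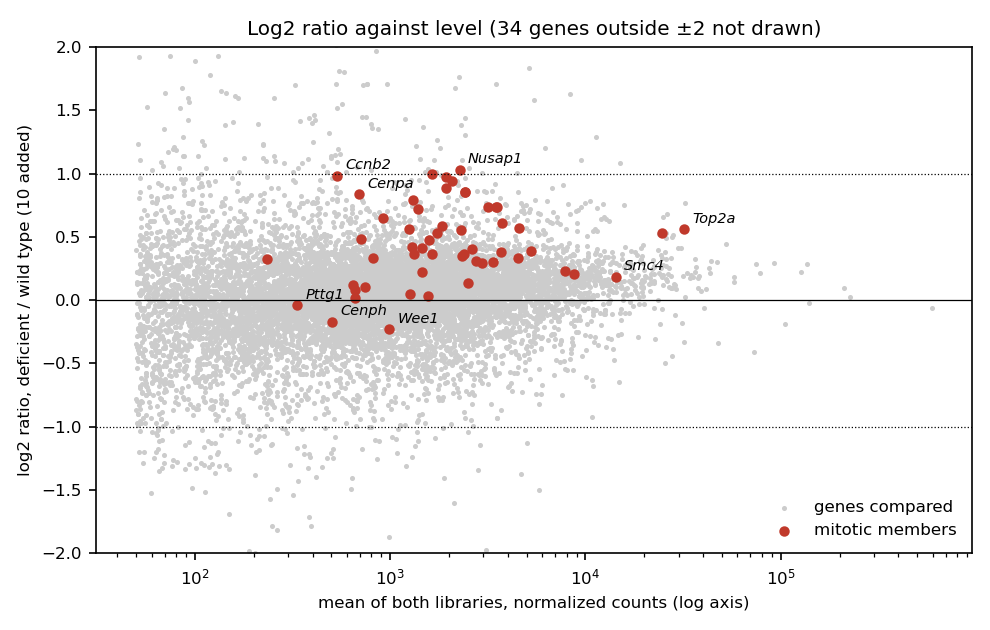
Log2 ratio against the mean of both libraries in normalized counts (log axis) for all genes compared (grey) and the 54 members (red), with dotted lines at the 2-fold call; 34 genes beyond the axis are not drawn. Members at every level lie mostly above the bulk of genes, from -0.23 for Wee1 to 1.03 for Nusap1.

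The members and other genes of G2 and mitosis differed from the genes of the preceding phase. Of 42 further G2/M-expressed genes 41 were measured, 37 were above 0, 16 reached 0.5 and none was called 2-fold, with a median log2 ratio of 0.35. The highest were Gas2l3, a cytoskeletal linker of the midbody (136 and 250, log2 ratio 0.83), and Prr11 (251 and 451, 0.82), and the lowest were Pkmyt1 and Cit, the citron kinase of cytokinesis (1090 and 907, -0.26). In contrast, none of 38 G1/S and replication genes reached 0.5 in either direction and their median was 0.09. Dbf4, the activator of the CDC7 kinase, was highest at 2350 and 3183 (0.44), followed by Rrm1 (0.39), and Cdt1, a licensing factor destroyed in S phase, was lowest at 2594 and 2216 (-0.23), below Gins3 at -0.19. The 16 genes of mitotic phosphatases had a median of 0.12, from -0.33 for Ppp2r2a and -0.29 for Ppp2r5e to 0.36 for Ppp2r5d and 0.43 for Cdc14b, all short of 0.5. No test of the difference between these lists was possible with 1 library per genotype.

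**Figure D3:**
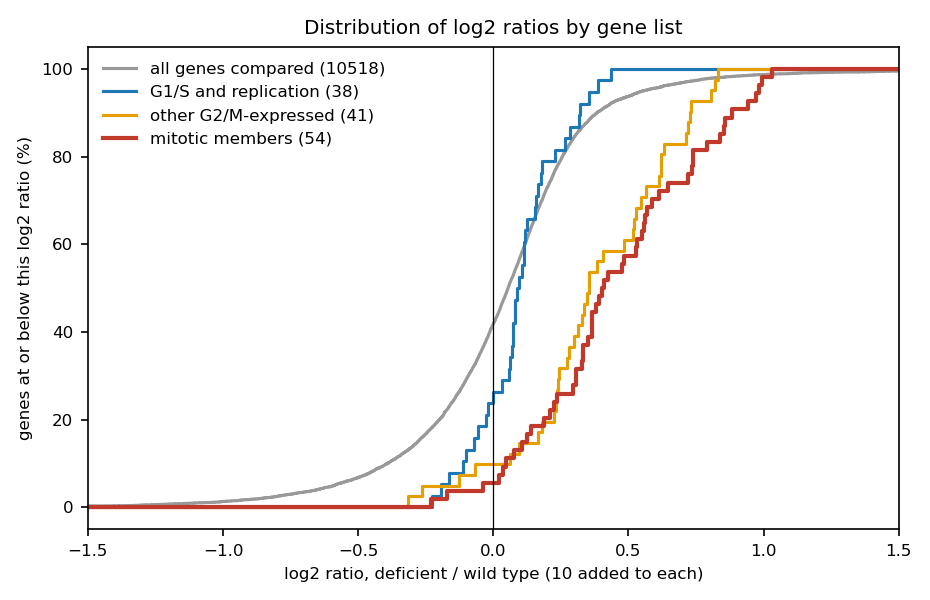
Cumulative share of genes (%) against the log2 ratio for the 54 members (red), 41 other G2/M-expressed genes (orange), 38 G1/S and replication genes (blue) and all 10518 genes compared (grey, values beyond the axis at its edges). The red and orange curves lie to the right, with medians of 0.41 and 0.35, and the blue curve crosses 50% at 0.09, near the 0.055 of all genes.

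The promoter windows of the members were searched for the motifs capitalised above, and matches are a description of letters and not of binding. A CHR, canonical or variant, was present in 31 of the 45 members with a window (68.9%), against 19.2% of all 32851 windows in the table and 21.7% of its 27025 genes. CCAAT was present in 34 (75.6%), against 37.4% of windows and 41.1% of genes, and both kinds in 29 (64.4%), against 7.52% of windows and 8.61% of genes. Members and genes were counted over all their windows. Of the 31 members with a CHR, 28 had one that began within the 60 bases before the start or after it. In the 31 G1/S and replication genes with a window the share with a CHR was 25.8%, and that with CCAAT 61.3%. In the 32 other G2/M-expressed genes with a window a CHR was present in 62.5%, CCAAT in 68.8% and both in 46.9%. These motifs were thus not particular to the members. Over the 8401 genes compared that had a window, the shares were 16.4%, 43.7% and 7.14%.

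Members with a CHR in the window had a median log2 ratio of 0.56, and 18 of 31 reached 0.5. The 14 members with a window but no CHR had a median of 0.36, and 4 of 14 reached 0.5. Members without a window, Wee1 among them, were in neither group. Members with a CHR ran from Cenpm (0.08) to Ube2c (0.99), and those with a window but no CHR from Cenph (-0.17) to Nusap1 (1.03). The ranges overlap widely, since Spc25 (0.11) holds a CHR and Ccnb1 (0.88) does not in these windows. Cenph, Pttg1, Cenpk and Mybl2, the lowest members with a window, hold no CHR. Over all genes compared with a window, the median was 0.094 for the 1378 genes with a CHR and 0.050 for the 7023 without one. Of these, 10.4% and 5.54% reached 0.5. For CHR and CCAAT together, the median was 0.13 for the 600 genes with both kinds of motif and 0.051 for the 7801 others. Of these, 15.3% and 5.65% reached 0.5. The 1378 include 31 of the members, and the 600 include 29.

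**Figure D4:**
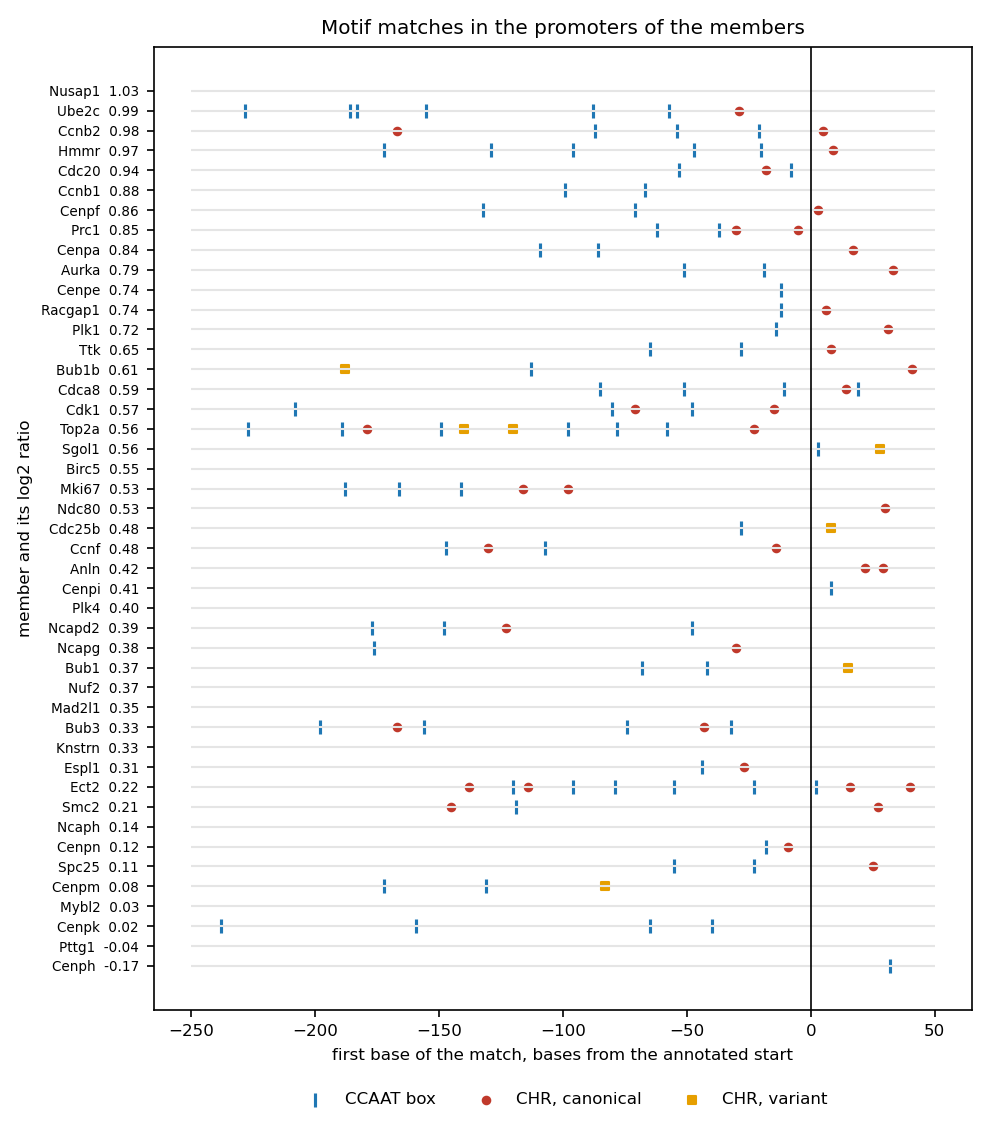
First base of each motif match, in bases from the annotated start, for the 45 members with a promoter window, ordered by log2 ratio from highest (top) to lowest; bars are CCAAT boxes, circles canonical and squares variant CHR matches. CHR matches cluster around the start (median first base -14.5) and CCAAT boxes upstream of it (median -74), and the 5 lowest of the members shown include 2 with no match.

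In the authors' deposited table, which holds fold changes moderated toward 0, the log2 fold change of the members ran from -0.16 to 0.64, where the extremes over all rows were -0.66 and 0.67. The unadjusted p-value of the members in the authors' deposited table was lowest at 0.0146, and the adjusted p-value was 0.999 for every member and at least 0.999 for every row. These values rest on the same single library per genotype.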

How the data were processed

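RNA sequencing libraries of CD8 T cells were made with a kit that does not mark the strand, per the labels' protocols, so overlapping antisense genes cannot be separated. The submitters' processing notes name STAR version 2, DESeq and the build mm9, while the sources used here give neither the read counter nor the annotation release. The authors deposited a never-negative signal, read counts per transcript row divided by 1 size factor per library. Every value was a whole multiple of the smallest one (100% in both libraries, relative tolerance 0.0001), so reads were recovered, with 1 read worth 0.583 (wild type) and 1.71 (deficient) normalized counts. A further deposited table gives the authors' own comparison, with log2 fold changes and p-values (raw and adjusted) that are quoted only as theirs. The test score in that deposited table was not used. Of 33018 rows, 1 with shifted values was left out.

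Computation used Python 3.11.15, NumPy 2.4.6, pandas 2.3.3 and SciPy 1.17.1. The code for folds, intervals and calls was tested on simulated counts with counting error alone. Variation between animals was not simulated, so that test checks the code and not the differences reported. A count model has no residual degrees of freedom with 1 library per genotype, so no p-value was computed. The members, lists and thresholds were chosen with earlier results of these data known. Full values were given for the highest and lowest member of each role, all at or past 2-fold or at or below 0, and the 3 highest per kilobase, and in each further list the 2 highest and 2 lowest genes. A gene that this rule names is not reported here. Other members were named to account for them. Alternatives were pseudocounts of 1 and 50, no minimum or one of 200, equal totals, centring on the median of all genes, other transcript rows, and removal of a length and GC trend, the last chosen after seeing the data. The promoter windows are of another build than mm9 and were used for sequence only. PCR reads are not independent molecules, so intervals cover counting error only.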

Additional observations from a re-analysis of the deposited data

How the results depend on the processing

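No paired analysis was possible because each genotype has 1 library, and for the same reason no library could be left out. The members' median log2 ratio of 0.41 lay between 0.32 (equal totals) and 0.44 (length and GC trend removed) under all alternatives. The number of members at or above 0.5 was 23, 16 at equal totals and 20 after centring, and lay at 23 or 24 otherwise. The 2-fold call of Nusap1 depended on the scaling: 2 members were called 2-fold higher with a pseudocount of 1, when Ccnb2 joined, and 0 at equal totals or after centring. Equal totals moved the median of all genes by -0.088, and the split of all genes called from 137 higher and 136 lower to 114 and 178. At equal totals 7 members were below 0 (Wee1, Cenph, Pttg1, Foxm1, Mybl2, Cenpk and Cenpm), and the median was 0.28 for the spindle checkpoint, 0.82 for spindle and midzone, 0.29 for chromosome structure and condensin (0.33 after centring), 0.035 for cohesin and condensin II, 0.012 for inner kinetochore and centromere, 0.096 for the further centromere and kinetochore genes, 0.12 for condensin I, 0.16 for APC/C subunits and regulators, -0.05 for the transcription factors, -0.13 for MuvB, pocket proteins and E2F, 0.033 for mitotic phosphatases and 0.0022 for G1/S and replication genes, shifts that follow from the scaling itself. The median of the MuvB, pocket protein and E2F list changed sign, to 0.022, with the lowest transcript row of each gene. Of the 54 members, 15 had several transcript rows, and their log2 ratios differed by at most 0.057 between rows. Depth limits the least abundant members most, as the interval of Cdc25c shows (1.04 to 1.54).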
